A study of Mus musculus with 65 samples.

Results

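The clustered protocadherins of the mouse are 3 neighbouring families of cell-surface genes, alpha, beta and gamma, on chromosome 18. Members were taken by symbol, as every counted gene whose name starts with Pcdha, Pcdhb or Pcdhg. This gave 58 of 24465 counted symbols, 14 in the alpha, 22 in the beta and 22 in the gamma cluster. In the mm10 annotation the alpha members span chr18:36930285-37188897 (258.6 kb), the beta members chr18:37264998-37521419 (256.4 kb) and the gamma members chr18:37661775-37841873 (180.1 kb).

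Each member encodes a cadherin-like adhesion protein with its own first, variable exon and promoter. Single neurons choose a few of these promoters, with CTCF, cohesin and DNA methylation known to act on the choice, and the resulting combination of proteins lets a neuron recognise its own branches. Alpha and gamma variable exons are spliced to constant exons shared across their cluster, whereas each beta gene is a single exon with no shared cytoplasmic part. The last variable exons of the alpha and gamma clusters, the C-type members Pcdhac1, Pcdhac2, Pcdhgc3, Pcdhgc4 and Pcdhgc5, are under separate control from the others and several are used by most neurons.

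RNA was measured in mouse embryonic stem cells held undifferentiated on gelatin with serum and leukaemia inhibitory factor (day 0), and in embryoid bodies made from them by rotation culture without that factor and with 10 µM all-trans retinoic acid (days 3 and 6). Libraries sequenced in 2020 came from an H3.3K27A line, in which the lysine of histone H3.3 that Polycomb methylates reads alanine, from an H3.3A knockout line, and from wild type. Each of these lines has 2 libraries at day 6 and 2 at day 0, except wild type at day 0 with 1. Wild type sequenced in 2019 has 2 libraries each at days 0, 3 and 6. Chromatin immunoprecipitation, done in wild type at days 6 and 0 with 2 replicates each, used an antibody against H3.3 trimethylated at K27 (H3.3K27me3), and others against H3K27me3, total H3.3 and total H3. Its libraries were sequenced in 2020. The labels give no strain, no clone number and no separate cultures for the RNA libraries, so each p-value reflects only how these samples vary, which may be technical variation.

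Libraries held 6.97 to 12.71 M gene counts in 2019 and 14.27 to 22.03 M in 2020, and the years were fitted apart. H3f3a, the gene named by the knockout label, lay at 20.4 to 24.2 CPM (counts scaled to library size, with TMM factors) in the H3.3K27A libraries, at 20.9 to 23.1 CPM in the knockout libraries, and between 114 and 129 CPM in the 2020 wild type. The H3.3K27A line thus shared the low H3f3a level of the knockout. H3f3b, the other H3.3 gene, lay at 499 to 599 CPM in H3.3K27A, 872 to 1130 CPM in the knockout and 797 to 894 CPM in the 2020 wild type. The stem cell label of day 0 was checked against 8 pluripotency markers, whose summed level in wild type of 2019 was 6490 and 6100 CPM at day 0, 684 and 657 CPM at day 3, and 143 and 152 CPM at day 6. Summed neuron markers in the same libraries were 618 and 643 CPM at day 0, 87.6 and 117 CPM at day 3, and 1780 and 1530 CPM at day 6. Markers of other lineages moved as well: summed primitive endoderm markers were 140 and 140 CPM at day 0, 1410 and 1440 CPM at day 3, and 1290 and 1210 CPM at day 6, and summed mesoderm and endothelium markers 83.9 and 110 CPM, 499 and 498 CPM, and 45.6 and 57.4 CPM on the same days. The part of these cell types in the protocadherin changes was not tested. In bulk RNA a change in the number of expressing cells and a change of RNA per cell cannot be told apart.

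Counts of alpha and gamma members come from their variable exons, because reads in constant exons fit several genes and were left as ambiguous. A median of 2394 bases per alpha member, 3417.5 per beta member and 2578 per gamma member were unique to it. Up to 16.4% of an alpha member's unique stretches of 75 bases, 4.1% of a beta member's and 13.8% of a gamma member's also occur in another member, so close relatives may share some reads. Pcdha4, Pcdha6 and Pcdha7 had 0 counts in all 17 libraries, and their exons overlap the annotated genes Gm37013, Gm38666 and Gm38667. Pcdha4 and Pcdha7 had 0 unique bases, so nothing about their expression can be read from this. Pcdha6 kept 1240 unique bases, so its 0 counts cover only that part of its exons. After the filter on low counts 46 members were tested in each year: 3 alpha members (Pcdha3, Pcdha10 and Pcdha12 in 2019; Pcdha2, Pcdha5 and Pcdha10 in 2020), 21 beta members (Pcdhb1 was left out) and all 22 gamma members.

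In undifferentiated wild-type cells the 3 clusters stood at very different levels. Of the gamma members 20 of 22 had counts in both day 0 libraries of 2019, against 2 of 22 beta members and 2 of the 12 alpha members with unique bases. Per kilobase of unique exon the median member level was 0.495 CPM per kb in the gamma cluster, 0.0069 in the beta cluster and 0 in the alpha cluster. Pcdhgc3, a C-type gamma protocadherin known to bind the Wnt regulator Axin1 and to shape dendrites, was the highest member at 3.79 CPM per kb. Pcdhgb8 and Pcdhga11, gamma members of the B and A type, followed with 2.05 and 1.99 CPM per kb.

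Through differentiation all 3 cluster sums were higher at day 6 than at day 0, by different amounts and on different days. Summed alpha levels in wild type of 2019 were 0.643 and 0.281 CPM at day 0, 0.647 and 0.825 CPM at day 3, and 9.60 and 6.13 CPM at day 6. Summed beta levels were 1.77 and 1.12 CPM at day 0, 11 and 13.2 CPM at day 3, and 145 and 135 CPM at day 6. Summed gamma levels were 41.6 and 47.0 CPM at day 0, 132 and 149 CPM at day 3, and 206 and 188 CPM at day 6. No day overlapped the next in any cluster, although the gap between day 3 and day 0 in the alpha cluster was small. The day 6 mean was 17 times the day 0 mean for alpha (7.87 ± 2.45 against 0.462 ± 0.256 CPM; 28.0 times without replicate 1 of day 0), 96.9 times for beta (140.0 ± 7.07 against 1.45 ± 0.46 CPM) and 4.45 times for gamma (197.0 ± 12.7 against 44.3 ± 3.82 CPM; SD, n = 2 each). The first step, day 3 over day 0, was 1.59, 8.37 and 3.17 times for alpha, beta and gamma, and the second step, day 6 over day 3, was 10.7, 11.6 and 1.40 times. The alpha value of the first step rests on 8 and 11 counts at day 3 against 4 and 3 at day 0 and was 2.62 times without replicate 1 of day 0.

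**Figure D1:**
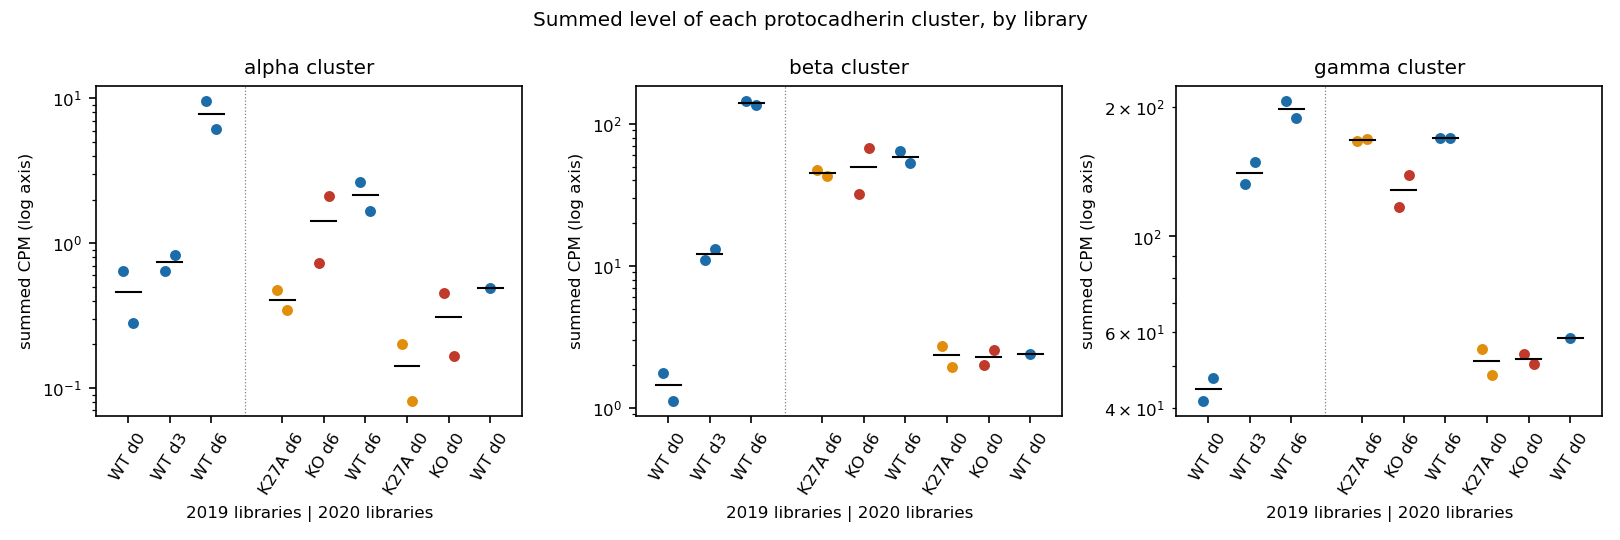
Summed level of the alpha, beta and gamma protocadherins (CPM, log axis) in each RNA library (points) with the group mean (bar), for wild type of 2019 at days 0, 3 and 6 and, for 2020, H3.3K27A, H3.3A knockout and wild type at day 6 and at day 0. The beta sum lies at 1.77 and 1.12 CPM at day 0 and at 145 and 135 CPM at day 6 of 2019, and the gamma sum is already at 41.6 and 47.0 CPM at day 0.

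Between day 6 and day 0 of 2019, 41 of the 46 tested members rose (41.4% of all 13593 genes tested rose) and 3 fell (36.6% of all genes fell). All 3 tested alpha members and all 21 tested beta members rose, and the gamma cluster split into 17 that rose, 3 that fell and 2 that were not called. Median log2 changes were 6.59 for alpha, 6.87 for beta and 2.69 for gamma, against 0.09 over all genes tested. With the 13 members at 0 counts on day 0 set at their lower bound (2 alpha and 11 beta), the alpha median was 2.58 and the beta median 4.84. Those 13 passed the count filter only through the later days, so they had to differ. The other tested alpha and beta members, with at most 3 counts in any day 0 library, also passed it only through later days. So did gamma members such as Pcdhga6. These counts and medians therefore describe the tested members and support nothing further. Members were called at an adjusted p below 0.05 (quasi-likelihood test of edgeR, adjusted by Benjamini-Hochberg over every gene tested).

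Among the alpha members, Pcdha3 had 0 counts in both day 0 libraries, 0.0809 and 0 CPM at day 3 and 2.22 and 1.46 CPM at day 6. It was at least 10.6-fold higher at day 6 than at day 0, with 46 against 0 counts and a floor of 3 counts over the group (edgeR adjusted p = 0.000136). Pcdha10 likewise had no count at day 0, 0 and 0.225 CPM at day 3 and 1.03 and 1.10 CPM at day 6, at least 5.98-fold higher (edgeR adjusted p = 0.00139). For both genes the day 6 libraries lay far above all earlier ones.

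Pcdha12 had 0.321 and 0.187 CPM at day 0, 0 and 0.150 CPM at day 3 and 1.55 and 0.914 CPM at day 6. Its day 6 libraries were the highest, but its rise over day 0 (log2 2.35 ± 0.71, SE, edgeR adjusted p = 0.00894) rested on single libraries. The edgeR adjusted p was 0.0853 without replicate 2 of day 0 and 0.094 without replicate 1 of day 6, and DESeq2 gave 0.091. Per kilobase, Pcdha3 led the alpha cluster at day 6 with 0.739 CPM per kb, ahead of Pcdha12 at 0.515 and Pcdha10 at 0.447.

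The alpha C-type members stayed near the detection limit and were not tested. Pcdhac2, which in mice is needed for the even spacing of serotonergic axons, had 0.161 and 0.0937 CPM at day 0, 0.243 and 0.075 CPM at day 3 and 0.517 and 0.183 CPM at day 6. Pcdhac1 had 0 counts at day 0, 0.0809 and 0 CPM at day 3 and 0.148 and 0 CPM at day 6, that is 2 counts at day 6 in all. At this depth no difference between the days could be shown for either gene.

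The beta genes, which encode protocadherins without the shared cytoplasmic part, were nearly silent at day 0 and had the largest ratio of cluster sums by day 6. Pcdhb22 had 0.161 and 0.187 CPM at day 0, 3.64 and 4.80 CPM at day 3 and 30.9 and 27.3 CPM at day 6. Its counts at day 6 were 165 times those at day 0 per unit of depth (95% exact counting interval 56.3 to 803, edgeR adjusted p = 4.5e-10). It was the highest beta member per kilobase at day 6, at 9.5 CPM per kb, ahead of Pcdhb17 at 4.88 and Pcdhb20 at 3.28.

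Pcdhb17 had 0 counts in both day 0 libraries, 0.405 and 1.35 CPM at day 3 and 16.2 and 15.7 CPM at day 6, at least 89.9-fold higher at day 6 than at day 0 (391 against 0 counts, edgeR adjusted p = 8.44e-08). Pcdhb11 had 0 counts at day 0, 0.0809 and 0.150 CPM at day 3 and 9.60 and 9.23 CPM at day 6, at least 53.1-fold higher than at day 0 (edgeR adjusted p = 7.97e-08). The days did not overlap for either gene, and the replicates of day 6 lay close together. Pcdhb16 had 0.161 and 0 CPM at day 0, 0.809 and 0.600 CPM at day 3 and 12 and 13.1 CPM at day 6, a count ratio of 211 between day 6 and day 0 (37.6 to 8370).

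Another 5 beta members with no count at day 0, Pcdhb5, Pcdhb6, Pcdhb10, Pcdhb12 and Pcdhb14, were at least 12.7-fold to 19.1-fold higher at day 6. The smallest fitted beta change was that of Pcdhb3, at log2 4.31 ± 0.44 (SE, edgeR adjusted p = 1.14e-06). Every tested beta member was called higher at day 6, and no beta member was called lower in any step of 2019.

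The gamma cluster rose less and from a higher start. Pcdhgc3 had 8.20 and 11.2 CPM at day 0, 42.8 and 48.0 CPM at day 3 and 61.4 and 60.1 CPM at day 6. It was 6.05-fold higher at day 6 than at day 0 (log2 2.60 ± 0.13, SE, edgeR adjusted p = 1.68e-09), and most of this was present at day 3. Pcdhgc3 was the highest gamma member per kilobase on every day, with 3.79, 17.7 and 23.6 CPM per kb at days 0, 3 and 6, and made up 22.2%, 32.4% and 30.9% of the summed gamma CPM per kb.

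Pcdhgc4, which mice need for the survival of cortical interneurons, had 0.482 and 0.187 CPM at day 0, 1.62 and 1.88 CPM at day 3 and 3.03 and 2.10 CPM at day 6. It rose by day 6 (log2 3.08 ± 0.54, SE, edgeR adjusted p = 0.000172), without overlap with day 0. Pcdhgc5, which binds GABA-A receptors, had 0.321 and 0.281 CPM at day 0, 3.08 and 3.75 CPM at day 3 and 1.70 and 2.01 CPM at day 6. It was highest at day 3 and stayed above day 0 at day 6 (log2 2.59 ± 0.52, SE, edgeR adjusted p = 0.000559). The authors' deposited table gives it log2 0.98 with an adjusted p of 0.0873, which is not a call.

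Among the A- and B-type gamma members, Pcdhga7 had 1.77 and 0.656 CPM at day 0, 8.34 and 8.25 CPM at day 3 and 21.9 and 19.7 CPM at day 6 (log2 4.26 ± 0.28 for day 6 over day 0, SE, edgeR adjusted p = 1.59e-08). Pcdhga3 had 0.321 and 0.656 CPM at day 0, 7.69 and 8.55 CPM at day 3 and 13.7 and 13.4 CPM at day 6 (log2 4.65 ± 0.30, SE, edgeR adjusted p = 1.49e-08). Pcdhga2 had 2.25 and 0.937 CPM at day 0, 10.4 and 10.4 CPM at day 3 and 15.7 and 13.3 CPM at day 6 (log2 3.33 ± 0.29, SE, edgeR adjusted p = 2.38e-07). In each of these genes the days were fully separated, and lack of overlap was a ground on which members were named.

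Pcdhga6 started near 0, as most beta genes did. It had 0.161 and 0 CPM at day 0, 0.728 and 0.600 CPM at day 3 and 5.54 and 3.66 CPM at day 6, a count ratio of 79.4 (14 to 3160). Pcdhga5, Pcdhgb1, Pcdhga9 and Pcdhgb6 rose by log2 3.68, 3.40, 3.28 and 3.13. Pcdhgb4 had 0.804 and 1.22 CPM at day 0, 8.01 and 7.80 CPM at day 3 and 7.97 and 6.13 CPM at day 6, so that it was as high at day 3 as at day 6.

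**Figure D2:**
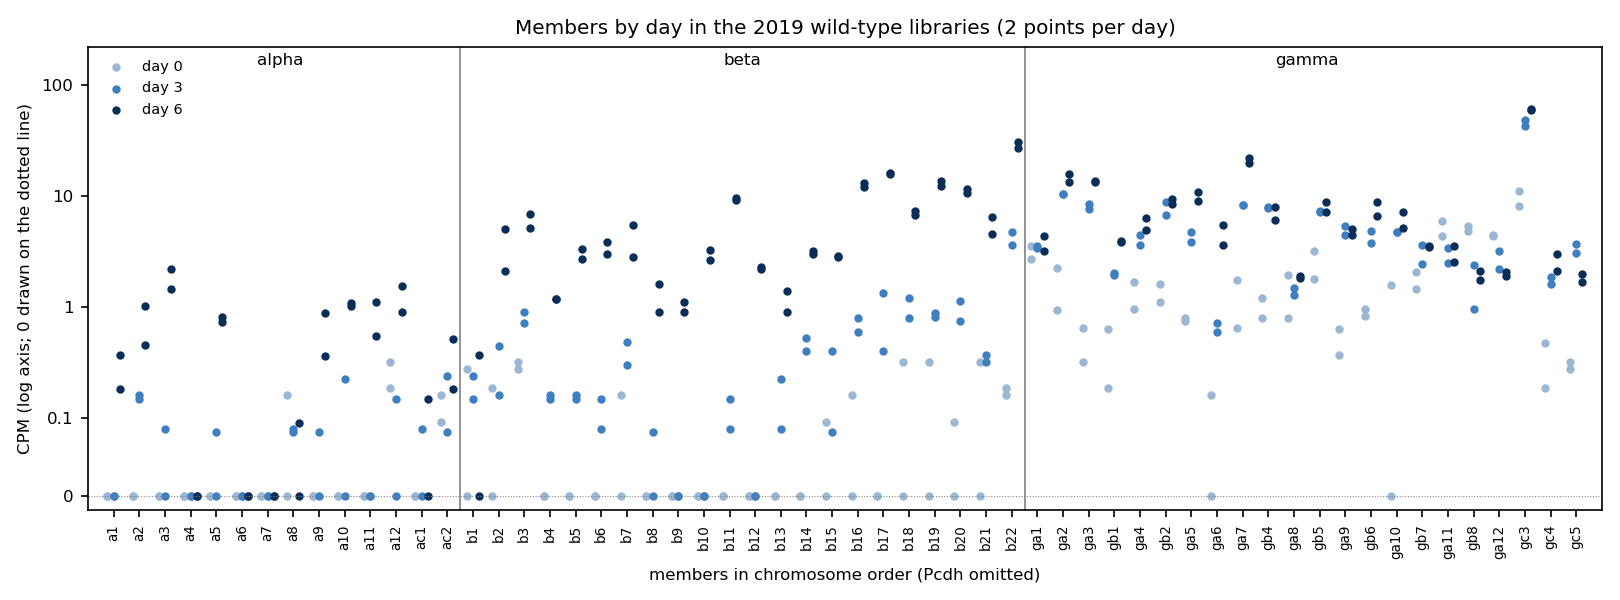
Level of each of the 58 members (CPM, log axis, with 0 on the dotted line) in the 2 wild-type libraries of 2019 at days 0, 3 and 6, in chromosome order from alpha to gamma. Most beta members sit at or near 0 at day 0 and most gamma members do not; Pcdhgc3 is the highest member at 61.4 and 60.1 CPM on day 6.

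A small group of neighbouring gamma members, the last 3 before the C-type genes, went the other way; these genes were singled out after their values were seen. Pcdhgb8, annotated as a transcribed pseudogene, had 4.82 and 5.44 CPM at day 0, 0.971 and 2.40 CPM at day 3 and 1.77 and 2.10 CPM at day 6 (log2 -1.42 ± 0.36 for day 6 over day 0, SE, edgeR adjusted p = 0.00265). Pcdhga12 had 4.34 and 4.50 CPM at day 0, 2.19 and 3.23 CPM at day 3 and 2.07 and 1.92 CPM at day 6 (log2 -1.14 ± 0.30, SE, edgeR adjusted p = 0.00371). Both were lower at day 6 than at day 0 without overlap, and both calls held under every alternative. Pcdhga11 had 4.34 and 6.00 CPM at day 0, 2.51 and 3.45 CPM at day 3 and 2.58 and 3.57 CPM at day 6. Its fall (log2 -0.80 ± 0.29, SE, edgeR adjusted p = 0.0232) was lost without replicate 2 of day 0 (edgeR adjusted p = 0.226), without replicate 1 of day 6 (0.175) and in DESeq2 (0.0968). The authors' deposited table did not call it either (log2 -0.71, adjusted p 0.0633). Pcdhga1 and Pcdhga8 were not called, with log2 changes of 0.21 ± 0.29 (edgeR adjusted p = 0.508) and 0.31 ± 0.41 (edgeR adjusted p = 0.498, SE).

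The clusters are described next by the step in which their members passed the test. At day 3 against day 0, 23 members rose (37.6% of all genes tested) and 3 fell (33.8% of all genes): 16 gamma members and 7 beta members rose, no alpha member passed the test, and the 3 that fell were Pcdhga11, Pcdhgb8 and Pcdhga12. At day 6 against day 3, 32 rose (29.4% of all genes) and 1 fell (27.9% of all genes): all 3 tested alpha and all 21 tested beta members rose, against 8 of 22 gamma members. The tested alpha and most of the beta members passed the count filter only through day 6, where they are high. Pcdhb9, Pcdhb10 and Pcdhb12, for example, had 0 counts in both day 3 libraries. The alpha and beta calls of this step therefore describe the tested members and support nothing further. Of the 17 gamma members that rose by day 6, 8 passed the test in both steps, 8 in the first step only and 0 in the second step only. This split rests on single libraries: the second-step calls of Pcdhga2, Pcdhgb1, Pcdhgb6 and Pcdhgc3, 4 of the 8, were lost without replicate 1 of day 3 (edgeR adjusted p = 0.157, 0.0853, 0.0811 and 0.0787), and those of Pcdhga2 and Pcdhgb1 without any 1 of the 4 libraries of days 6 and 3. Of the 21 beta members, 7 passed in both steps and 14 in the second only. Relative to the whole rise in CPM, a median of 68.7% was reached at day 3 by the gamma members that rose (12.9% to 200.0%), against 5.5% by the beta members (0.0% to 15.0%) and 2.2% by the alpha members (-18.3% to 10.6%).

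The early beta members were Pcdhb14, Pcdhb16, Pcdhb17, Pcdhb18, Pcdhb19, Pcdhb20 and Pcdhb22. Pcdhb22 was ahead, with a count ratio of 23.9 between day 3 and day 0 (7.96 to 118, edgeR adjusted p = 2.36e-06), and Pcdhb17 was at least 5.04-fold higher (edgeR adjusted p = 0.00301). The calls of Pcdhb14, Pcdhb16, Pcdhb18 and Pcdhb19 were lost without replicate 2 of day 0, with edgeR adjusted p from 0.0519 to 0.168, and so was that of Pcdhga6 (edgeR adjusted p = 0.15). The largest early gamma changes were those of Pcdhga3 (log2 3.91 ± 0.33, SE, edgeR adjusted p = 2.71e-07), Pcdhgc5 (log2 3.48 ± 0.47, edgeR adjusted p = 2.21e-05) and Pcdhga9 (log2 3.35 ± 0.40). Of the early falls only that of Pcdhgb8 (log2 -1.60 ± 0.36, SE, edgeR adjusted p = 0.0015) held under every alternative.

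In the second step Pcdhb10 and Pcdhb12 were at least 25.5-fold and 19.2-fold higher at day 6 than at day 3, with 0 counts at day 3. Pcdhb11 had a count ratio of 80.8 (27.3 to 395), and Pcdha3 one of 48.3 (8.24 to 1950). The late gamma changes were smaller, led by Pcdhga6 (log2 2.79 ± 0.39, SE, edgeR adjusted p = 6.19e-05), Pcdhga7 (1.33 ± 0.18, edgeR adjusted p = 3.73e-05) and Pcdhga5 (1.20 ± 0.21, edgeR adjusted p = 0.000352). Pcdhgc3 rose by a further log2 0.42 ± 0.10 (SE, edgeR adjusted p = 0.00417), a call lost without replicate 1 of day 3 (edgeR adjusted p = 0.0787). The later fall of Pcdhgc5 (log2 -0.89 ± 0.29, SE, edgeR adjusted p = 0.0198) was lost without replicate 2 of day 3 (0.156), without replicate 1 (0.135) or replicate 2 (0.0548) of day 6, and in DESeq2 (adjusted p = 0.216). The call of Pcdha10 was lost without replicate 1 of day 3 (edgeR adjusted p = 0.0563) and in DESeq2.

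The libraries of 2020 repeated the comparison of day 6 with day 0 in each line. In H3.3K27A, 35 members rose and 4 fell (39.5% and 37.2% of all 14760 genes tested); in the knockout, 38 rose and 4 fell (40.8% and 36.4%); in wild type, 38 rose and 2 fell (36.0% and 34.8%). Wild type of 2020 at day 0 is 1 library, whose spread was taken from the other groups in every result that uses it. Taken with the 2019 series, 33 members, 17 beta and 16 gamma, rose in all 4 comparisons, and Pcdhga11 and Pcdhga12 fell in all 4. In 2020 Pcdhga12 fell by log2 2.43 in H3.3K27A, by 2.29 in the knockout and by 3.36 in wild type. Pcdhga11 fell by log2 1.35, 1.36 and 1.34 in the same order. The share of all genes called alike in all 4 comparisons was not computed. Most beta members again passed the count filter only through day 6. Of the 33, DESeq2 did not call Pcdhb12 in H3.3K27A, Pcdhb6 and Pcdhgb5 in wild type of 2020, or Pcdhgb7 in the knockout and in wild type of both years. Calls of Pcdhb2 and Pcdhb10 in H3.3K27A were among those lost without single libraries. DESeq2 did not call the falls of Pcdhga1 and Pcdhgb8 in H3.3K27A. Nor did it call the fall of Pcdhga11 in 2019 (DESeq2 adjusted p = 0.0968), which edgeR also lost without single libraries.

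The years differ in sequencing and depth, so no test was made between them. The alpha sum was 0.472 and 0.343 CPM at day 6 against 0.201 and 0.0813 CPM at day 0 in H3.3K27A, 0.733 and 2.13 CPM against 0.451 and 0.166 CPM in the knockout, and 2.66 and 1.66 CPM against 0.493 CPM in wild type. Day 6 lay above day 0 in each line, on few counts, and leaving out 1 library moved the ratio of day 6 to day 0 between 2.03 and 5.01 in H3.3K27A, 2.38 and 8.62 in the knockout and 3.37 and 5.4 in wild type. The day 6 over day 0 ratio of the beta sum was 19.3 in H3.3K27A, 22.0 in the knockout and 24.4 in wild type, and that of the gamma sum 3.25, 2.46 and 2.91 in the same order; the knockout's beta ratio was 14.1 without replicate 2 of day 6. The median log2 changes of the tested beta members, with those at 0 counts set at their bound, were 3.28, 4.1 and 3.09. That bound rests on a floor of 3 counts over the whole day 0 group. It is lower for wild type, whose day 0 group is 1 library, so these medians do not compare the lines. Summed neuron markers at day 6 were 234 and 169 CPM in H3.3K27A, 242 and 687 CPM in the knockout and 440 and 246 CPM in wild type of 2020, against 781 CPM in wild type of 2020 at day 0. Single markers went both ways in wild type of 2020. Stmn2 was at 29.2 CPM at day 6 against 402 CPM at day 0 and Ina at 34.2 against 169 CPM. Dcx rose by log2 8.35 and Nefm by 3.69. The part of these markers in the ratios was not tested.

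Pcdhgc3 again rose in each line. It had 55.7 and 53.9 CPM at day 6 against 19.0 and 16.3 CPM at day 0 in H3.3K27A (log2 1.63 ± 0.12, SE, edgeR adjusted p = 1.27e-06). The knockout had 32.7 and 39.7 CPM at day 6 against 17.6 and 15.7 CPM at day 0 (1.12 ± 0.12, edgeR adjusted p = 1.8e-05). Wild type had 49.7 and 48.0 CPM at day 6 against 17.3 CPM at day 0 (1.5 ± 0.16, edgeR adjusted p = 1.72e-05). Day 6 lay above day 0 in every line, and the knockout at day 6 lay below the other lines.

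The alpha members were at the limit of detection in 2020. Pcdha2 had 0.0787 and 0.049 CPM at day 6 in H3.3K27A, 0.105 and 0.310 CPM in the knockout and 0.539 and 0.262 CPM in wild type, with 0 counts in every day 0 library. Pcdha2 and Pcdha10 passed the test in wild type and in the knockout and Pcdha5 in the knockout, and none of these calls was made by DESeq2 (adjusted p from 0.0767 to 0.108). Several were also lost without 1 library: Pcdha10 in wild type without replicate 2 of day 6 (edgeR adjusted p = 0.0583) and in the knockout without replicate 2 of day 0 (0.127), and Pcdha2 in the knockout without either of its day 0 libraries (0.0733 and 0.0877) or replicate 2 of its day 6 libraries (0.112). Pcdha5 was lost without any of 5 libraries, the knockout's day 0 pair, replicate 2 of its day 6 libraries and the H3.3K27A day 0 pair, with edgeR adjusted p from 0.0552 to 0.153. In H3.3K27A none of the 3 tested alpha members passed the edgeR test or DESeq2, and 0 of them had an unadjusted p below 0.05.

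At day 6 the H3.3K27A line had no member called against wild type, while 20 of 21 tested beta and 13 of 22 gamma differences lay below 0 (46.4% of all genes). By edgeR 0 of 46 members were called in either direction (1.13% of all genes were higher and 0.908% lower in H3.3K27A), and DESeq2 also called 0. At an unadjusted p below 0.05 there were 9 members, 3 alpha and 6 beta, all lower (7.36% of all genes were lower at that level and 8.23% higher). The 3 tested alpha members passed the count filter through day 6 libraries of the knockout or wild type, where they are high, so their place among the 9 follows from the filter and supports nothing. The median log2 difference was -0.72 for beta and -0.09 for gamma, against 0.02 over all genes. Some beta members, among them Pcdhb4, Pcdhb8, Pcdhb9 and Pcdhb10, also passed the filter only through knockout or wild-type libraries of day 6. Pcdhb9, for example, had 8 and 7 counts in H3.3K27A against 24 and 19 in wild type. The beta counts and median therefore describe the tested members and support nothing further. The summed levels were 0.472 and 0.343 CPM in H3.3K27A against 2.66 and 1.66 CPM in wild type for alpha, 47.7 and 43.2 against 64.5 and 53.2 CPM for beta, and 166 and 168 against 169 and 169 CPM for gamma.

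Of the single members, Pcdha2 had 3 counts in H3.3K27A and 20 in wild type, a ratio of 0.16 per unit of depth (0.0305 to 0.54, edgeR adjusted p = 0.191). Pcdhb9, the member with the lowest adjusted p, had 0.315 and 0.343 CPM in H3.3K27A against 0.924 and 0.828 CPM in wild type (log2 -1.40 ± 0.39, SE, edgeR adjusted p = 0.133). Pcdhb3 had 0.669 and 0.441 CPM against 1.96 and 1.53 CPM (log2 -1.62 ± 0.55, edgeR adjusted p = 0.181). The libraries of Pcdha2, Pcdhb9 and Pcdhb3 did not overlap between the lines, but none of these genes passed the test. The share of all genes without such overlap was not computed. Pcdha2 and Pcdhb9 passed the count filter only through knockout or wild-type libraries, so their low values in H3.3K27A support nothing. Leaving out 1 library of the knockout, which enters the fit through the shared spread, changed this: without its day 6 replicate 1, Pcdhb2, Pcdhb3, Pcdhb9 and Pcdhb11 were called lower, and without its day 6 replicate 2, Pcdhb2, Pcdhb3 and Pcdhb11. For Pcdhgc3 the difference was log2 0.17 with a 95% interval of -0.06 to 0.39.

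The H3.3A knockout at day 6 had 3 gamma members called lower than wild type and none higher (4.42% and 6.98% of all genes). Pcdhgb4 had 3.82 and 4.57 CPM in the knockout against 7.97 and 7.54 CPM in wild type (log2 -0.88 ± 0.22, SE, edgeR adjusted p = 0.031). Pcdhga7 had 9.58 and 13.1 CPM against 17.4 and 19.8 CPM (-0.71 ± 0.19, edgeR adjusted p = 0.0406). Pcdhgc3 had 32.7 and 39.7 CPM against 49.7 and 48.0 CPM (-0.43 ± 0.12, edgeR adjusted p = 0.0421). In all 3 genes both knockout libraries lay below both wild-type libraries. Pcdhgc4 and Pcdhgc5 were not called, with log2 differences of -0.02 (95% interval -0.54 to 0.49) and -0.36 (-0.87 to 0.16).

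These 3 calls depended on single libraries. Without either wild-type day 6, either H3.3K27A day 6 or either knockout day 0 library 0 members were called, and without either H3.3K27A day 0 library only Pcdhgb4. With a replicate block 0 were called, and DESeq2 called 3. The knockout's day 6 libraries themselves differed: the beta sum was 32.1 CPM in replicate 1 and 67.9 CPM in replicate 2, against 64.5 and 53.2 CPM in wild type. Without replicate 2, 19 members were called lower (9 beta and 10 gamma), and without replicate 1 the same 3 as before.

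The knockout differed from the other lines in cell markers too. Summed primitive endoderm markers at day 6 were 7830 and 5160 CPM in the knockout against 1530 and 1930 CPM in wild type, with 6 of 8 markers called higher. Summed pluripotency markers were 560 and 302 CPM against 157 and 198 CPM, with 4 of 8 called higher. Summed neuron markers were 242 and 687 CPM against 440 and 246 CPM, with the lower knockout value in replicate 1, the library with the lower beta sum. The part of these differences in the protocadherin values was not tested.

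Set against the knockout at day 6, H3.3K27A had 2 gamma members called higher and 0 lower (9.03% and 9.64% of all genes). Pcdhgb4 had 8.22 and 8.14 CPM in H3.3K27A against 3.82 and 4.57 CPM in the knockout (log2 0.96 ± 0.22, SE, edgeR adjusted p = 0.0145). Pcdhgc3 had 55.7 and 53.9 CPM against 32.7 and 39.7 CPM (0.60 ± 0.12, edgeR adjusted p = 0.00741). Neither gene overlapped between the lines. All 8 primitive endoderm markers were called lower in H3.3K27A in this comparison, with sums of 1140 and 1430 CPM against 7830 and 5160 CPM.

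The count of calls moved with single libraries here as well. Without H3.3K27A day 6 replicate 1 it was 0, and without replicate 2 only Pcdhgc3 was left. Without knockout day 6 replicate 1 it was 2 higher and 8 lower (1 alpha and 7 beta among the lower), and without replicate 2 it was 12 higher and 0 lower. At day 0 edgeR called 0 members in each of the 3 comparisons between lines, and so did DESeq2; 5 members had an unadjusted p below 0.05 for H3.3K27A against wild type (12.2% of all genes, 10.9% of the members), 3 for H3.3K27A against the knockout (12.2% of all genes, 6.52% of the members) and 0 for the knockout against wild type (5.0% of all genes). The percentages called over all genes were 0.569% higher and 1.17% lower for H3.3K27A against wild type, 0.461% and 0.806% for H3.3K27A against the knockout, and 0.0271% and 0.0949% for the knockout against wild type.

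**Figure D3:**
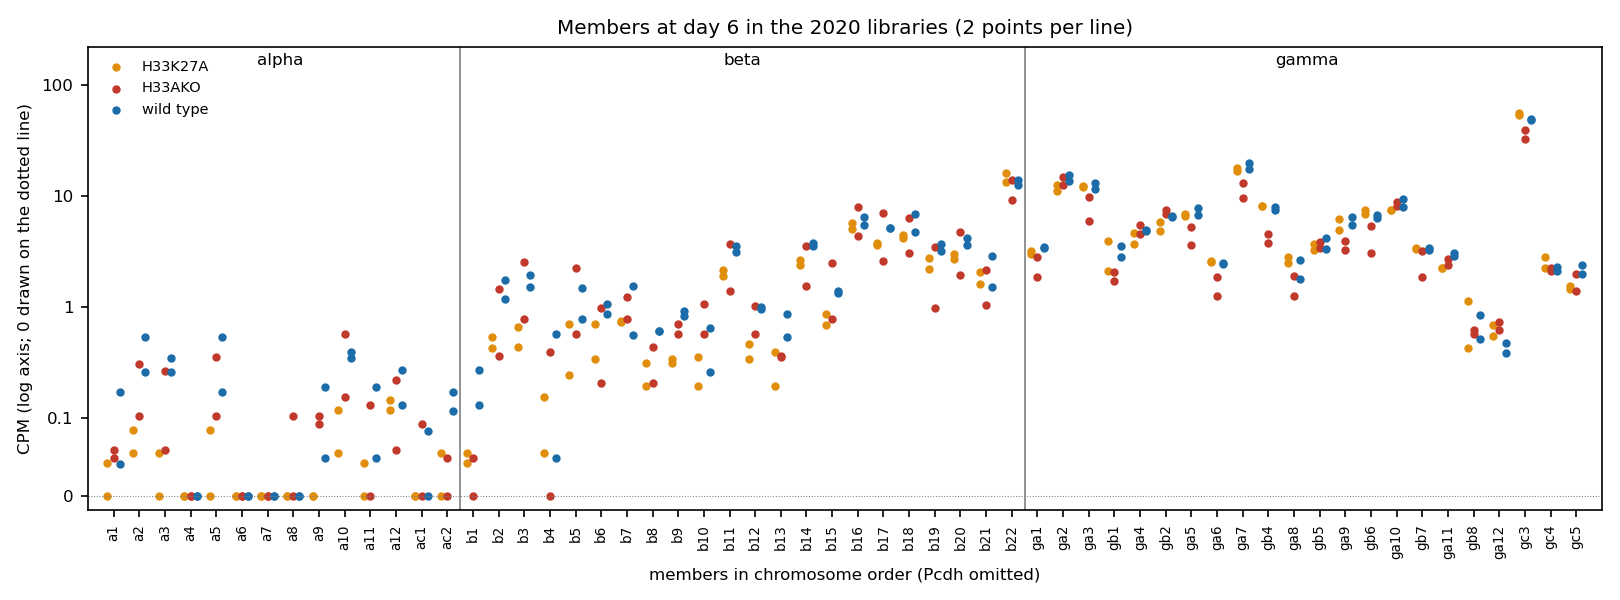
Level of each of the 58 members (CPM, log axis, with 0 on the dotted line) at day 6 in H3.3K27A, H3.3A knockout and wild type of 2020, 2 libraries each, in chromosome order. Pcdhgc3 lies at 32.7 and 39.7 CPM in the knockout and at 49.7 and 48.0 CPM in wild type, and the alpha members lie lowest.

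Whether the change between day 6 and day 0 itself differed between lines was tested by interaction terms. Pcdhgb4 alone was called, with a larger rise in H3.3K27A than in the knockout by log2 1.88 ± 0.42 (SE, edgeR adjusted p = 0.0337; 3.23% of all genes had a positive and 2.16% a negative difference called). It had 8.22 and 8.14 CPM at day 6 against 0.873 and 0.407 CPM at day 0 in H3.3K27A, and 3.82 and 4.57 CPM at day 6 against 1.42 and 1.11 CPM at day 0 in the knockout. The day 0 libraries of H3.3K27A lay below those of the knockout and its day 6 libraries above. The call was lost without either knockout day 0 library (edgeR adjusted p = 0.143 and 0.0868), H3.3K27A day 0 replicate 2 (0.116), either H3.3K27A day 6 library (0.123 and 0.1) or either wild-type day 6 library (0.0661 and 0.0662), and with a replicate block (0.0626). For H3.3K27A against wild type edgeR called 0 members (0.549% and 0.217% of all genes), with 4 at an unadjusted p below 0.05 (8.7% of the members, 11.2% of all genes), and for the knockout against wild type also 0 (0.0407% each way), with 1 at that level (2.17% of the members, 12.1% of all genes); DESeq2 called 0 in both.

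Genes known to act on the clusters and their wider family were read from lists. Of 29 tested regulators 7 rose and 18 fell between day 6 and day 0 of 2019, a comparison in which 41.4% of all genes rose and 36.6% fell; the counts of the other lists below are to be read against the same shares. Dnmt3b, the methyltransferase that methylates alternate protocadherin promoters, averaged 29.1 CPM at day 6 against 382 CPM at day 0 (log2 -3.71 ± 0.10, SE, edgeR adjusted p = 4.08e-12). Rest, the repressor of neuronal genes, averaged 66 against 372 CPM (-2.50 ± 0.10, edgeR adjusted p = 1.31e-10), and Smchd1, which silences protocadherin genes in mice, 242 against 177 CPM (0.45 ± 0.07, edgeR adjusted p = 3.8e-05). The largest regulator changes were falls of Dnmt3l (log2 -6.05) and Tet1 (-3.89). Ctcf was listed at 0 in all 17 libraries, so its level was not read.

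Most tested relatives outside the clusters rose as well. Of 18 tested protocadherins and Fat or Dachsous genes outside the clusters 16 rose and 1 fell by day 6, led by Pcdh18 (log2 10.60 ± 0.28, SE), Fat4 (10.15 ± 0.22) and Pcdh7 (7.99 ± 0.45), with the fitted values uncertain where day 0 was near 0. Of 10 classical cadherins 8 rose and 2 fell, with Cdh11 at log2 10.14 ± 0.21. Of 16 signalling partners 9 rose and 4 fell, among them Marcks (2.94 ± 0.08) and Adam10, a protease that cleaves gamma protocadherins (2.43 ± 0.09), both higher at day 6. Of 25 genes flanking the clusters 7 rose and 13 fell. Taf7, a TFIID subunit gene that lies between the beta and gamma clusters, had 83.7 and 86.8 CPM at day 6 against 223 and 214 CPM at day 0 (-1.36 ± 0.07, edgeR adjusted p = 2.5e-09), opposite to most of its protocadherin neighbours.

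Chromatin over the clusters was read from the authors' deposited tables of regions, whose signal counts reads after scaling every library down to the one with fewest; the authors' log2 there is day 0 minus day 6, so a positive value means lower at day 6. H3K27me3, the mark of Polycomb repression, was tabulated in 11 regions over the clusters, which together held the start of every one of the 58 members. Of the 11, 10 were called lower at day 6 and 0 higher in the authors' deposited table (30.5% and 2.57% of all 10491 regions), at a median log2 of 0.40 (0.14 to 0.78) against 0.13 over the whole table. In all 11 both day 6 values lay below both day 0 values, as they did in 55.2% of all regions of the table.

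The widest of them, chr18:37637390-37779299 (mm10, 141.9 kb), runs from Taf7 to Pcdhga12 and holds 19 gamma starts. Its normalised signal in the authors' deposited table was 4719.38 and 4363.57 at day 6 against 7386 and 7756.17 at day 0, that is 60.0% of day 0 (log2 0.74, FDR 7.66e-54). It ranked 3 of 10491 by p-value and 204 by width. Of the 19 members starting there, 14 rose in RNA by day 6 in 2019, 3 fell (Pcdhga11, Pcdhgb8 and Pcdhga12) and 2 were not called, so members of both directions share this region. In wild type of 2020, the year of the ChIP libraries, Pcdhgb8 was not called. The neighbouring region chr18:37802961-37822032 (19.1 kb) over Pcdhgc3, Pcdhgc4 and Pcdhgc5 had 484.61 and 452.58 at day 6 against 745 and 859.2 at day 0 in the authors' deposited table (58.4%, log2 0.78, FDR 2.39e-11).

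In the alpha cluster, the authors' deposited table gave chr18:36990291-37031609, over Pcdha8 to Pcdha12, 1203.05 and 1281.97 at day 6 against 1885 and 2112.49 at day 0 (62.2%, log2 0.69, FDR 7.46e-16). The regions over the C-type starts kept more of their signal, with 82.2% over Pcdhac1 (log2 0.28, FDR 0.00557) and 85.6% over Pcdhac2 (log2 0.22, FDR 0.0266) in the same deposited table. In the beta cluster, chr18:37465821-37529165 over Pcdhb15 to Pcdhb22 had 2530.15 and 2463.92 at day 6 against 3263 and 3640.17 at day 0 in the authors' deposited table (72.3%, log2 0.47, FDR 6.81e-12). The region over Pcdhb2 to Pcdhb8 kept 81.9% (log2 0.29, FDR 4.58e-06). All 7 of its members were called higher at day 6 of 2019, on few or 0 counts at day 0. In wild type of 2020, the year of the ChIP libraries, Pcdhb4 and Pcdhb8 were not called. The relation of this signal to the RNA changes was not tested. The 1 region not called, chr18:37184388-37224003 past the last alpha start, kept 91.0% (FDR 0.215).

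H3.3 and H3 were also lower in some of these places, and the tables' regions overlap in location. Of 6 H3.3 regions, 4 were called lower and 0 higher in the authors' deposited table (36.4% and 13.9% of all 14812 regions). A single H3.3 region of 326.0 kb, chr18:37637552-37963585, covered all 22 gamma starts, with 9616.83 and 8997.32 at day 6 against 12750.42 and 12767 at day 0 in the authors' deposited table (72.9%, log2 0.46, FDR 2.71e-24). Of 7 H3 regions, 3 were called lower and 0 higher in the authors' deposited table (16.6% and 9.23% of all 6618 regions), led by chr18:37671575-37779434 with 17 gamma starts at 2439.31 and 2401 against 3059.12 and 2990.88 (80.0%, log2 0.32, FDR 5.22e-10). Over the main gamma block the day 6 share of day 0 was thus 60.0% for H3K27me3, 72.9% for H3.3 and 80.0% for H3. The tables were scaled separately and their regions differ in extent, so the difference between marks was not tested.

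**Figure D4:**
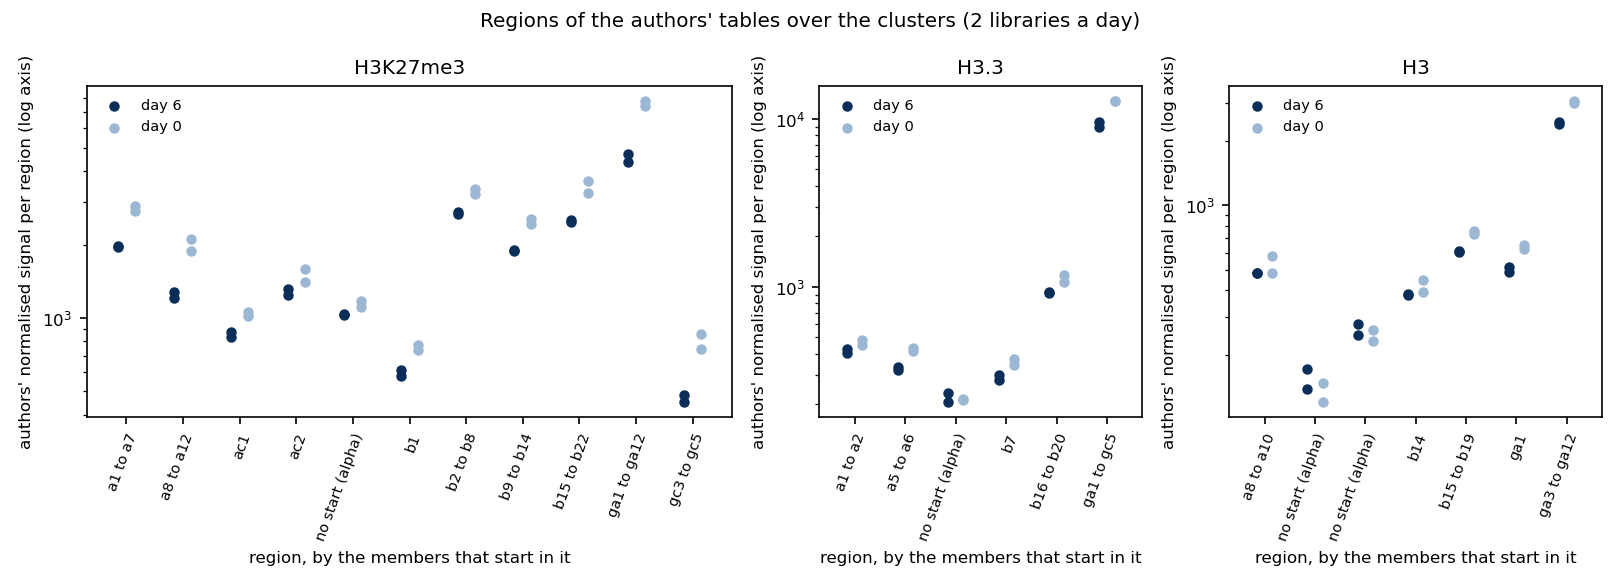
The authors' normalised signal (scaled reads per region, log axis) of the H3K27me3, H3.3 and H3 table regions over the clusters, with the 2 day 6 libraries left of the 2 day 0 libraries. In the widest H3K27me3 region the signal is 4719.38 and 4363.57 at day 6 and 7386 and 7756.17 at day 0.

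No region table was used for the H3.3K27me3 antibody, so it was read from the authors' filtered peaks. The share of the bases of the 3 clusters under H3.3K27me3 peaks was 39.8% and 30.2% at day 6 against 66.5% and 58.1% at day 0, while the genome as a whole had 12.1% and 6.1% at day 6 against 6.6% and 7.2% at day 0. For H3K27me3 the share was 50.3% and 43.5% at day 6 against 67.8% and 67.5% at day 0 (genome 6.8% and 5.8% against 8.2% and 6.7%). In both marks the clusters lay far above the genome share in every library, and day 6 lay below day 0. The H3.3K27me3 libraries held 30.45 and 34.2 M tags at day 6 against 71.13 and 49.87 M at day 0, and the part of this in the peak shares was not tested; the H3K27me3 libraries were closer in depth, with 55.59 and 51.4 against 50.09 and 51.49 M.

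By cluster, H3.3K27me3 peaks covered 36.8% and 34.3% of the beta cluster at day 6 against 78.1% and 66.8% at day 0. They covered 41.5% and 26.4% of the gamma cluster at day 6 against 64.2% and 61.7% at day 0, and 41.7% and 28.8% of the alpha cluster against 56.6% and 46.9%. The days did not overlap in any cluster. H3.3 peaks covered 79.4% and 22.7% of the gamma cluster at day 6 against 93.9% and 100.0% at day 0, and 0.0% and 10.3% of the beta cluster at day 6 against 16.1% and 21.3% at day 0. The 2 day 6 libraries of H3.3 were far apart in the gamma cluster, and held 74.23 and 51.56 M tags. H3 peaks covered 3.8% and 6.3% of the 3 clusters at day 6 against 21.5% and 17.3% at day 0.

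**Figure D5:**
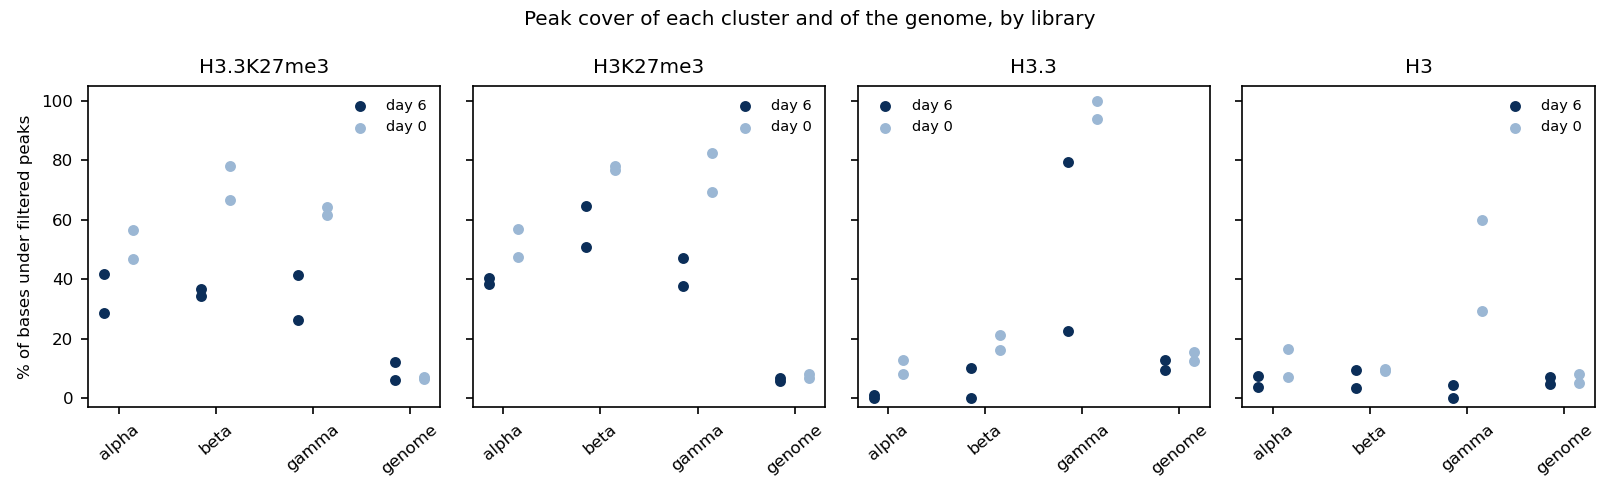
Percent of bases under the authors' filtered peaks in the alpha, beta and gamma clusters and in the whole genome, for H3.3K27me3, H3K27me3, H3.3 and H3, with day 6 left of day 0 and 1 point per library. H3.3K27me3 covers 36.8% and 34.3% of the beta cluster at day 6 and 78.1% and 66.8% at day 0.

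At the level of single starts, 19 of the 58 members had an H3.3K27me3 peak within 2 kb in both day 6 libraries (3.2% of 23395 genes did), against 52 in both day 0 libraries (11.9% of genes); single libraries had 34 and 28 members at day 6 against 57 and 53 at day 0. For H3K27me3 the numbers were 40 at day 6 (11.8% of genes) and 56 at day 0 (18.9%), with 49 and 44 against 57 and 57 in single libraries. For H3.3 they were 5 at day 6, all gamma (26.3% of genes), and 29 at day 0, among them all 22 gamma members (38.7%). Single H3.3 libraries had 20 and 12 at day 6 against 35 and 37 at day 0, and the gamma members among them were 20 and 5 at day 6, so the replicates of that day differ. For H3 the numbers were 0 at day 6 (2.47%) and 9 at day 0 (6.01%), with 3 and 6 against 24 and 18 in single libraries. The members with an H3.3K27me3 peak in both day 6 libraries were Pcdha1 to Pcdha3, Pcdha10 to Pcdha12, Pcdhb17 to Pcdhb22, and Pcdhga5, Pcdhga7, Pcdhgb5, Pcdhga9, Pcdhgb6, Pcdhga10 and Pcdhgb7. Neighbouring starts share peaks and are not independent. This group, named after its values were seen, includes Pcdhb17 and Pcdhb22, both among the beta members with the highest RNA level at day 6. It also includes Pcdha1, Pcdha2 and Pcdha11, whose RNA level was low at day 6. Pcdhgc3, the highest member of all at day 6, and Pcdhb16, another high beta member, are outside it. The relation of these peaks to the RNA level was not tested.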

How the data were processed

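The members and gene lists were chosen with earlier results of these data known. Per the labels, poly(A) RNA went into directional libraries. The files hold raw counts of reads per gene symbol as deposited; the authors used STAR 2.5.2a on mm10 and HTSeq, per the submitters' processing notes, and the strand setting is not given in the sources used here, so antisense or overlapping genes such as Gm37013 may share reads. Reads without a feature (25.7% to 43.3% of those listed in 2019 and 11.3% to 16.8% in 2020) and ambiguous reads (7.4% to 9.5% and 10.7% to 11.9%) were left out. The authors' deposited table of log2 fold changes and p-values for wild-type day 6 over day 0 lists all 58 members, 42 higher and 2 lower at an adjusted p below 0.05. Of the members called here for 2019, the authors' deposited table did not call Pcdhgc5 (adjusted p 0.0873), Pcdhgb7 (0.349) and Pcdhga11 (0.0633).

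In the ChIP data, peaks were called by the authors using MACS2 with no control library (p 0.01, at least 1000 bp long, gaps up to 5000 bp, fixed background), per the file headers. Per the file headers, each deposited call has a pileup signal at its summit, its −log10 p, and a fold enrichment over background. The filter behind the authors' shorter peak lists is not given in the sources used here; every filtered peak lay in a deposited call. The authors' region tables (the submitters' processing notes name DiffBind) give scaled signal, log2 mean signal per day, a log2 difference and p-values.

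Counts were filtered with filterByExpr, scaled by TMM and fitted with the quasi-likelihood test of edgeR 4.0.16 in R 4.3.3, separately for 2019 and 2020. Members were called at an adjusted p below 0.05 over all genes tested. Alternatives were DESeq2 1.42.0, its size factors, other count filters (none, or 10 counts in 2 libraries), 1 fit of all 17 libraries, a replicate block and leaving out each library, the last for cluster sums chosen after seeing the data. Deviations of same-numbered libraries correlated at -0.36 to 0.14, so the numbers were not taken as pairs. In simulated data edgeR recovered 82% of genes changed by log2 1 and 100% of those changed by log2 2 for wild-type day 6 over day 0 of 2019 (13308 genes), and 87% and 99% for H3.3K27A against wild type at day 6 (14330 genes). In the simulation only genes with ample counts were changed, at a single fixed spread, so these rates do not cover the sparsely counted alpha and beta members. Standard errors of fitted changes are approximate. Folds against a group at 0 counts use a floor of 3 counts over the group; ratios against 1 to 3 counts have 95% exact intervals, and floors and intervals cover counting error only.

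Named members were the C-type genes in every comparison, up to 8 per cluster with the largest called, non-overlapping change, and the 3 per cluster with the highest mean CPM; from each list, up to 5 called genes with the largest change, with Ctcf, Smchd1, Dnmt3b, Rest and Taf7. Members named for a non-overlapping change could not overlap in that comparison, so their lack of overlap is no added support. A start counted as having a peak within 2 kb on either side. Sequences were not used. Tables were handled in Python 3.11.15 with pandas 2.3.3 and scipy 1.17.1, and plots drawn with matplotlib 3.10.9.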

Additional observations from a re-analysis of the deposited data

Results flagged for a closer look

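The rise of Pcdhgb4, a B-type gamma protocadherin, between day 6 and day 0 differed between 2 lines by a test of the difference itself. The interaction was log2 1.88 ± 0.42 (SE, edgeR adjusted p = 0.0337), with a rise of 3.62 ± 0.29 in H3.3K27A and 1.74 ± 0.26 in the knockout; wild type of 2020, at 2.5 ± 0.32, lay between them, and its interaction with H3.3K27A (1.13 ± 0.46, edgeR adjusted p = 0.401) did not pass the test. Alternatives that ended the call are given with the interaction result above. No RNA group has 4 libraries, so single libraries were not screened for standing apart from their group.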

How the results depend on the processing

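For day 6 against day 0 the count of called members stayed between 38 and 48 in wild type of 2019, 31 and 41 in H3.3K27A, 36 and 42 in the knockout and 35 and 42 in wild type of 2020 when single libraries were left out, and between 19 and 27 for day 3 against day 0 and 26 and 37 for day 6 against day 3. No named gene reversed under any alternative, 124 gene values lost their call and 16 gained one, out of 3521 recomputed. Comparisons between lines moved more. Without 1 library the count ran from 0 to 19 for the knockout against wild type at day 6 (3 as reported), 0 to 4 for H3.3K27A against wild type (0), 0 to 12 for H3.3K27A against the knockout (2), and for the differences of the rise 0 to 2 (H3.3K27A and wild type, 0 as reported), 0 to 3 (knockout and wild type, 0) and 0 to 5 (H3.3K27A and knockout, 1). With all 17 libraries in one fit the counts were 6, 7 and 2 for the knockout against wild type, H3.3K27A against the knockout and the difference of their rises, and with no count filter 4 and 2 for the last 2 of these. The causes were not tested.

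With the replicate number as a block, 0 members were called for the knockout against wild type at day 6 and 0 for the difference of rises, against 3 and 1; the other counts were within 1.5 times. The numbers do not pair the samples. Crossing the knockout's day 6 numbers in the replicate block gave 7 calls for H3.3K27A against the knockout and 4 for the knockout against wild type, a choice made after seeing the data. With CPM by library total, log2 ratios of cluster sums became 2.41 (gamma, 2019), 2.11 and 4.7 (gamma and beta, H3.3K27A), 1.6 (gamma, knockout), and 1.99 and 5.05 (gamma and beta, wild type of 2020), all still above 0. The day 6 minus day 0 peak share of H3.3K27me3 was -38.6 points (6.8% against 45.4%) with enrichment of at least 3, against -27.3 points as reported. That of H3K27me3 was -38.8 points with that minimum and -13.6 points with all MACS2 calls, against -20.8, and that of H3 was 0.0 with no peak left. Depth limits the alpha members most: Pcdhac1 had 8 counts over all 17 libraries.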

Other observations

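Genes outside the clusters were compared with each cluster by the sum of its members' log2(CPM + 1), not by summed CPM. Those whose log2(CPM + 1) followed it most closely over the 17 libraries (of 13282 genes compared) are given as a description only, since libraries of 1 day share their state. For alpha they were Nxph1 (Pearson r 0.992), Kcnk10 (0.983), Mapk10 (0.976), Slc6a5 (0.972) and Mab21l1 (0.97). For beta they were Syt6 (0.996), Heyl (0.994), Bhlhe22 (0.993), Epha3 (0.993) and Pou3f2 (0.99), of which Pou3f2, a neural transcription factor, averaged 0.161 CPM at day 0, 2.54 CPM at day 3 and 156 CPM at day 6 of 2019. For gamma they were Pard3b, Ttyh3, Arnt2 and Stxbp4 (0.992 each) and Sox9 (0.991), of which Arnt2 averaged 9.05 CPM at day 0, 51.4 CPM at day 3 and 99.1 CPM at day 6.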
